A study of Mus musculus with 222 samples.

Results

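Zbtb16, Tex101, Taf7l and Mageb4 are 4 genes best known from spermatogonia and later male germ cells of the mouse testis, here read in embryonic germ cells that lack EED. They are 4 of the 24391 gene symbols counted in the series. The 4 were chosen by their measured counts, for higher values in E13.5 XY ECKO germ cells than in the Controls of that stage, so that contrast is described below without a test. What was tested is the same genes at E11.5 and E12.5, in libraries and embryos that the choice did not use.

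The cells were primordial germ cells (PGCs), from which sperm and eggs later form, sorted as GFP-positive cells from mouse gonads of C57BL/6;129S1/SvlmJ background. ECKO embryos, labelled Eed -/-, came from a cross that brings together an Oct4-GFP reporter, floxed Eed alleles and a Blimp1-Cre transgene, which is active in PGCs. Controls are labelled wild type, although the mothers of the cross were homozygous for the floxed allele, so each Control also carries at least 1 floxed Eed copy. Whether Controls carried the Cre is not stated. Bulk libraries came from E11.5 XX embryos (4 ECKO, 3 Control), E11.5 XY embryos (4 ECKO, 4 Control) and E13.5 XY embryos (3 ECKO, 4 Control). Single cells came from E12.5 embryos, with 2 ECKO and 2 Control embryos of each sex, lettered A and B within each group. The labels do not say whether a bulk library is 1 embryo or several, so p-values measure the spread between libraries.

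EED belongs to the core of PRC2, the Polycomb complex that puts methyl groups on lysine 27 of histone H3 and keeps developmental genes silent. ZBTB16, also called PLZF, is a zinc finger transcription factor that spermatogonial stem cells need for self-renewal. TEX101 is a glycoprotein anchored to the surface of testicular germ cells, and male mice without it are infertile because their sperm fail to reach the egg. TAF7L is an X-linked, germ cell paralogue of TAF7, a subunit of the general transcription factor TFIID. MAGEB4 is an X-linked member of the MAGE family, whose type I members are largely restricted to the testis in normal tissue and are re-expressed in tumours.

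In the RefSeq annotation of GRCm38.p6, Zbtb16 lies on chromosome 9, Tex101 on chromosome 7, and Taf7l and Mageb4 on chromosome X. All 4 are protein-coding. Zbtb16 overlaps 1 other annotated gene, Gm32280, and since no source used here gives the strand setting of the counts, reads of the pair cannot be told apart. The other 3 overlap no annotated gene.

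The reference used here held no promoter window for Zbtb16, which was also high in E13.5 XY ECKO cells. Promoter windows of 300 bases, from 250 before to 50 after the annotated start, are shown for Tex101, Taf7l and Mageb4. They are from RefSeq on GRCm38.p6, at chr7:24672001-24672300, chrX:134476441-134476740 and chrX:86256170-86256469, all on the minus strand and written 5′ to 3′ for the gene. Capitals mark the letters of CCAAT on either strand and of CACGTG.
Tex101: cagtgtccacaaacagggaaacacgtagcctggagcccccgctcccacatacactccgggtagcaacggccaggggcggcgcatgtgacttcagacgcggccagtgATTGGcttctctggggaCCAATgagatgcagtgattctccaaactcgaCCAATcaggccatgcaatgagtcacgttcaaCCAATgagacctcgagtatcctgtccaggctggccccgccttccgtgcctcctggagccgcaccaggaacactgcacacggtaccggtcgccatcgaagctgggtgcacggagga
Taf7l: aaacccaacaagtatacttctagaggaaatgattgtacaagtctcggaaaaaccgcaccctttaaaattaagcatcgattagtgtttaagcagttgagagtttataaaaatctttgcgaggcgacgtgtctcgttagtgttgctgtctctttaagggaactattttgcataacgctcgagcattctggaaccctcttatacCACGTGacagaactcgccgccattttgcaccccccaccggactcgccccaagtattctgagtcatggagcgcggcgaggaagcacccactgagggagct
Mageb4: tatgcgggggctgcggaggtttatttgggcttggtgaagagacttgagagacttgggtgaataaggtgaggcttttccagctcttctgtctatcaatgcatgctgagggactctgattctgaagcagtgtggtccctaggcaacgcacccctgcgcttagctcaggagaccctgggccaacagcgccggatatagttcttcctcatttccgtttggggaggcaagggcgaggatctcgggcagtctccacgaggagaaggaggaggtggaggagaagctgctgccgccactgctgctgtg

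The 3 windows held more CpG than the median promoter window, though a large part of all windows held as many or more. Their GC content was 60.33% for Tex101, 47% for Taf7l and 56.67% for Mageb4, against a median of 52.67%. Tex101 held 19 CpG dinucleotides, Taf7l 17 and Mageb4 11, against a median of 7 over 32851 promoter windows. Fewer CpG than these were found in 71.9% of all windows for Tex101, 68.6% for Taf7l and 58.6% for Mageb4. Tex101 had CCAAT at -127, -96 and -65 from the start and its reverse, ATTGG, at -144, a motif that 37.41% of all windows hold at least once on either strand. Taf7l had 1 CACGTG, at -49, which 7.15% of windows hold. A search on both strands for TTCCCGC, held by 4.6% of windows, found no match in the 3 windows, and no 2 of these matches overlapped. These are matches of letters only.

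In every ECKO library and embryo the targeted gene was below all Controls of the same sex and stage. Eed lay between 2.98 and 12.7 CPM (counts scaled by library size) in E13.5 XY ECKO libraries and between 57.5 and 120 CPM in their Controls (log2 fold change -3.33, SE 0.56, adjusted p = 0.0107 by edgeR's quasi-likelihood test). The fold change was -1.62 (SE 0.29, adjusted p = 0.0118) in E11.5 XY, and -1.88 (SE 0.35, adjusted p = 0.0567) in E11.5 XX. At E12.5 even Eed was not called by edgeR. Its fold change was -1.75 (SE 0.68, adjusted p = 0.354) in XX and -1.70 (SE 0.68, adjusted p = 0.738) in XY. Without Control 4 the E13.5 XY value had an adjusted p of 0.0509. Depth ran from 8607927 to 14974853 counts in E11.5 XY libraries, from 4903492 to 12425911 in E13.5 XY libraries and from 415291 to 7559310 in E11.5 XX libraries, the shallowest. At E12.5, 127 of 192 cells were kept, with a median of 1310080 counts and 7056 genes. All 12 germ cell identity markers, among them Ddx4 and Dazl, had counts in every group.

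In E13.5 XY germ cells, where male PGCs are entering mitotic arrest, all 4 genes lay in every ECKO library above every Control. Zbtb16 had 43.1, 42.8 and 136 CPM in ECKO libraries 1 to 3, against 0.101, 0.639, 0.122 and 0.422 CPM in Controls 1 to 4. Tex101 had 39.0, 50.2 and 234 CPM in ECKO and 0.202, 2.08, 0.245 and 0.422 CPM in Control. The ECKO groups of both genes stood far above their Controls, and the third ECKO library was the highest for each. Taf7l had 42.6, 120 and 129 CPM in ECKO and 0.303, 0.639, 0.734 and 2.11 CPM in Control. Mageb4 had 103, 141 and 240 CPM in ECKO and 4.25, 4.87, 9.67 and 7.81 CPM in Control, so it alone had several CPM in each Control. ECKO library 1 was the lowest of its group for Tex101, Taf7l and Mageb4, and level with library 2 for Zbtb16.

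The fitted log2 fold changes in that contrast were 7.77 (SE 0.80) for Zbtb16, 7.06 (SE 0.93) for Tex101, 6.79 (SE 0.71) for Taf7l and 4.61 (SE 0.46) for Mageb4, as a description of how the genes were picked. Leaving out 1 library at a time moved them between 6.98 and 8.59 for Zbtb16, 5.82 and 8.62 for Tex101, 6.47 and 7.45 for Taf7l, and 4.20 and 4.94 for Mageb4. Of 12336 genes tested in E13.5 XY, 2.99% were called higher and 1.90% lower in ECKO at an adjusted p under 0.05, and 12.2% had every ECKO library above every Control. Since the 4 genes were chosen for this contrast, nothing is read from their share against those figures.

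**Figure D1:**
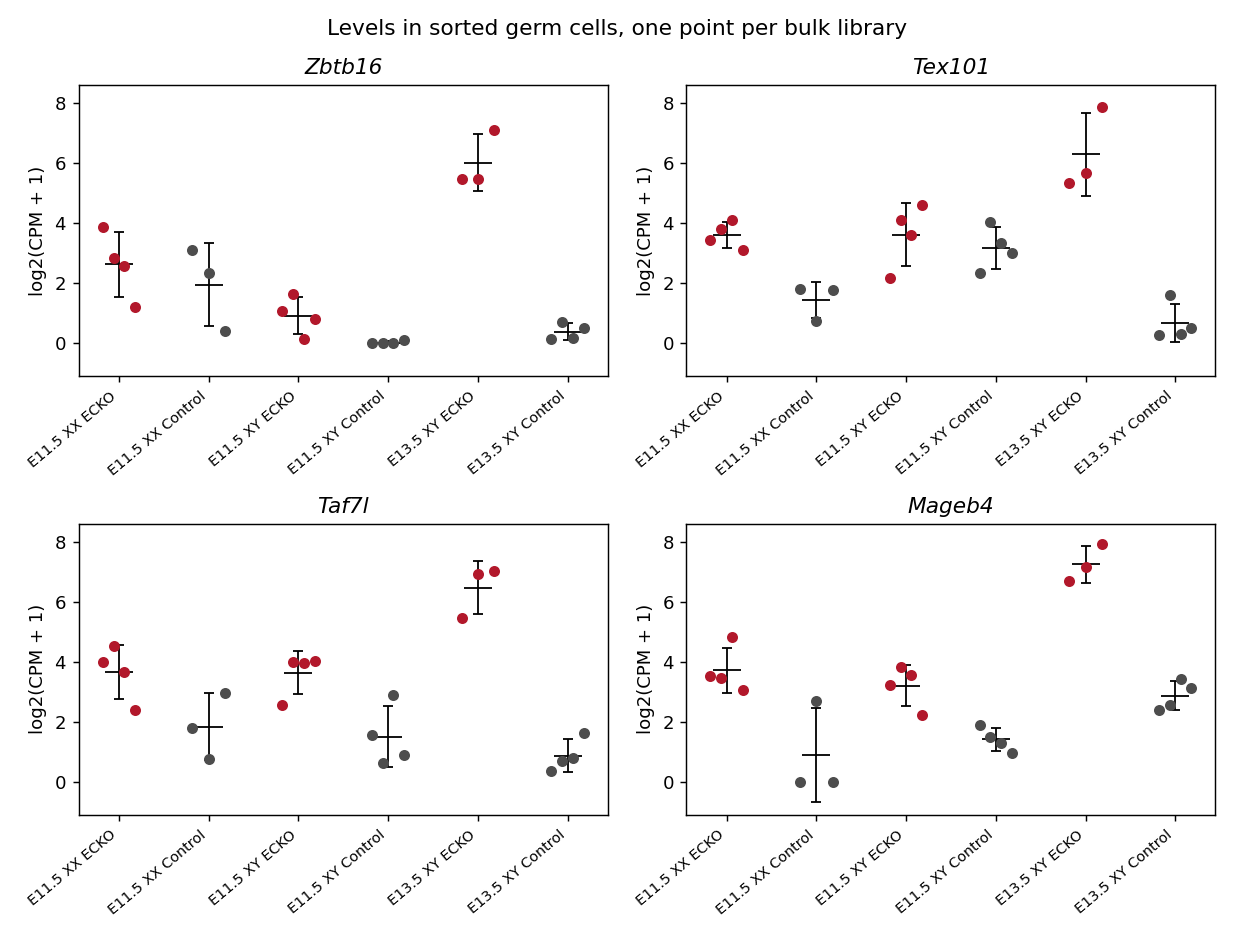
Level of each gene in the 22 bulk libraries as log2(CPM + 1), 1 point per library, ECKO in red and Control in grey for each stage and sex, with the mean and 1 SD as horizontal and vertical lines. The 3 E13.5 XY ECKO points lie above all other points of Zbtb16, Tex101, Taf7l and Mageb4, and the E11.5 groups of ECKO and Control lie closer together.

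Summed cell type markers were compared beside these levels in the E13.5 libraries. The 12 germ cell identity markers summed to 1655 to 3220 CPM in E13.5 XY ECKO and to 4130 to 4890 CPM in Control, so the groups did not overlap. The 12 supporting cell markers summed to 20.6 to 47.6 CPM in ECKO and 9.58 to 278.5 CPM in Control, and the 14 interstitial and mesenchymal markers to 25.8 to 69.9 CPM in ECKO and 7.79 to 58.4 CPM in Control. Cyp17a1, Hsd3b1 and Insl3, the steroidogenic and hormone genes that define Leydig cells, had no counts in the 3 ECKO libraries, and Insl3 had none in the Controls. Of the 5 interstitial and mesenchymal genes tested, 2 had positive log2 fold changes. These were Pdgfra (4.65, adjusted p = 0.0426 by edgeR) and Col1a1 (2.41, adjusted p = 0.197). Star (-1.41), Col1a2 (-2.04) and Col3a1 (-0.45) had negative ones. The 8 endothelial markers summed to 21.3 to 82.1 CPM in ECKO and 160 to 229 CPM in Control, and 9 blood markers to 0.811 to 3.77 CPM in ECKO and 0 to 8.87 CPM in Control. Of the 4 endothelial genes tested, only Pecam1, which PGCs also express, had a negative log2 fold change (-2.68, adjusted p = 0.0785 by edgeR). Cdh5 (0.89), Tek (0.29) and Flt1 (4.26) had positive ones. Fewer cells of a type and less RNA per cell cannot be told apart in bulk libraries. The part of these differences in the levels of the 4 genes was not tested.

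The E11.5 XY comparison asks whether the 4 genes already differ at an earlier stage, when the gonad is starting to differentiate. None of the 3 genes that passed the count filter was called, where 1.51% of 12497 genes were called higher, 0.616% lower, and 5.15% had every ECKO library above every Control. Mageb4 came closest, with a 5.14-fold higher fitted level in ECKO.

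Mageb4 had 8.37, 13.1, 10.8 and 3.72 CPM in E11.5 XY ECKO libraries 1 to 4, against 2.74, 1.81, 1.49 and 0.952 CPM in Controls 1 to 4. The groups did not overlap, though ECKO 4 lay close to Control 1. Its log2 fold change was 2.36 (SE 0.72, adjusted p = 0.102 by edgeR, unadjusted p = 0.00449). Taf7l had 4.91, 14.9, 14.7 and 15.2 CPM in ECKO and 1.96, 0.566, 6.53 and 0.884 CPM in Control. Here 3 ECKO libraries lay close together, while ECKO 1 was lower than Control 3. The log2 fold change of Taf7l was 2.30 (SE 0.77, adjusted p = 0.140 by edgeR), and it passed when Control 3 was left out, at 3.43 (adjusted p = 0.0475). DESeq2 called both genes, with adjusted p-values of 0.00332 for Mageb4 and 0.0191 for Taf7l.

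Tex101 differed least at this stage in XY cells. It had 3.54, 16.1, 11.25 and 23.04 CPM in ECKO and 4.12, 15.5, 9.05 and 7.01 CPM in Control. The 2 groups overlapped over most of their range, and ECKO 1 was below every Control. Its log2 fold change was 0.60 (SE 0.58, adjusted p = 0.674 by edgeR).

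Zbtb16 was near 0 in E11.5 XY cells and failed the count filter. It had 1.13, 2.08, 0.0978 and 0.743 CPM in ECKO, against 0 CPM in Controls 1 to 3 and 0.0680 CPM in Control 4. All 4 ECKO libraries held reads, 43 in all, while the 4 Controls held 1 between them. ECKO 3 and Control 4 held 1 read each, in 10258743 and 14957095 counts. That ECKO 3 lay above Control 4, and so that the groups did not overlap, rests on depth alone. The ratio of summed counts per total was 51.8 with an exact 95% counting interval of 8.81 to 2093, which covers counting error only. An exact 2-sided permutation test over the 8 libraries, added after the filter had removed the gene, gave p = 0.0286, the smallest it can give with 4 against 4. That value too rests on ECKO 3 lying above Control 4, at 1 read each, so nothing is concluded from it. Without the filter edgeR gave an adjusted p of 0.168. Counting 3 reads as the limit, the 3 Controls at 0 allow up to 0.329 CPM.

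In E11.5 XX cells, where all 4 genes passed the filter, none was called, beside 0.136% of 11058 genes called higher and 0.0362% called lower. Every ECKO library lay above every Control for Tex101 and Mageb4, as it did for 7.51% of all genes tested. Tex101 had 9.86, 13.1, 16.1 and 7.62 CPM in ECKO libraries 1 to 4 and 2.52, 0.682 and 2.38 CPM in Controls 1 to 3. The groups were well apart, with ECKO 4 the lowest of its group. Its log2 fold change was 2.67 (SE 0.85, adjusted p = 0.199 by edgeR, unadjusted p = 0.00753).

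Mageb4 in XX cells had 10.51, 10.001, 27.2 and 7.29 CPM in ECKO, against 0, 5.46 and 0 CPM in Control. Control 1 held only 415291 counts, so a count of 0 there allows up to 7.22 CPM, which is next to ECKO 4. The log2 fold change was 2.76 (SE 1.15, adjusted p = 0.308 by edgeR), and 8.38 without Control 2, which leaves Controls at 0. Taf7l had 15.05, 22.3, 11.8 and 4.31 CPM in ECKO and 2.52, 0.682 and 6.81 CPM in Control, with ECKO 4 below Control 3, and its log2 fold change was 1.84 (SE 0.88, adjusted p = 0.375 by edgeR).

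Zbtb16 in XX cells had 13.49, 6.15, 5.00 and 1.33 CPM in ECKO and 7.55, 4.09 and 0.340 CPM in Control. These groups overlapped through most of their range. The log2 fold change was 1.01 (SE 1.12, adjusted p = 0.746 by edgeR). Zbtb16 had reads in all 7 XX libraries, unlike in XY Controls of the same stage, but the XX and XY libraries were deposited as separate tables and their levels were not compared by a test.

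ECKO 4 of each sex had the highest interstitial and supporting cell sums at E11.5. The 14 interstitial and mesenchymal markers summed to 29.7 to 1175 CPM in E11.5 XX ECKO and to 15.996 to 106 CPM in Control, and to 19.8 to 395 CPM in E11.5 XY ECKO and to 10.95 to 97.4 CPM in Control. Cyp17a1 had no counts in either XX group. Of the interstitial and mesenchymal genes tested, 6 of 7 had positive log2 fold changes in XX (median 2.81) and 8 of 8 in XY (median 1.79), and none was called. The 12 supporting cell markers summed to 35.4 to 192 CPM in XX ECKO and 11.9 to 40.9 CPM in XX Control, and to 50.4 to 91.5 CPM in XY ECKO and 13.1 to 70.1 CPM in XY Control. Amh and Foxl2 had no counts in either XX group. Of the supporting cell genes tested, 3 of 4 had positive log2 fold changes in XX (median 2.14) and 7 of 8 in XY (median 1.02), and none was called. In XX, ECKO 4 had the lowest level of each of the 4 genes in its group, beside the highest interstitial sum. In XY, ECKO 4 had the highest Tex101 and Taf7l and the lowest Mageb4 of its group. The part of these cells in the levels was not tested.

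Whether the ECKO difference itself differed between the sexes at E11.5 was asked of an interaction term in a fit of all 15 libraries, where table and sex are the same split. None of the 4 genes passed, nor did any of the 14185 genes tested (0%), with 747 at an unadjusted p under 0.05 by edgeR and 1 gene called by DESeq2. The XX minus XY difference in log2 fold change was 2.13 (SE 1.02) for Tex101, -3.90 (SE 1.69) for Zbtb16, -0.43 (SE 1.16) for Taf7l and 0.44 (SE 1.29) for Mageb4, with adjusted p-values from 0.900 to 0.984. The value for Zbtb16 rests on XY Controls that held 1 read in all.

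**Figure D2:**
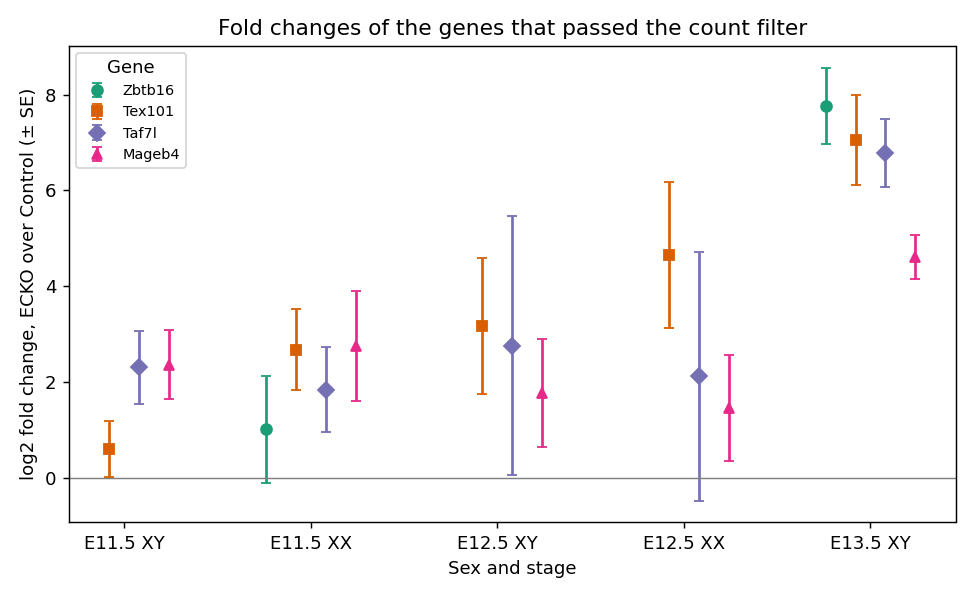
Fitted log2 fold change of ECKO over Control for each gene that passed the count filter, with 1 SE, for E11.5 XY, E11.5 XX, E12.5 XY, E12.5 XX and E13.5 XY. The E11.5 values lie between 0.60 and 2.76 and the E13.5 XY values, the ones that chose the genes, between 4.61 and 7.77.

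At E12.5, cells of 1 embryo were summed, and the 8 embryos were fitted together. Tex101 had the largest fold change of the 3 genes tested in each sex, though it was not called, and Zbtb16 was all but missing. In XX embryos Tex101 had 106 and 81.6 CPM in ECKO A and B, against 0.683 and 6.80 CPM in Control A and B. In XY embryos it had 142 and 78.9 CPM in ECKO A and B and 24.4 and 0.347 CPM in Control A and B. Each ECKO embryo was above both Controls of its sex, as for 23.3% of all genes tested in XX and 20.8% in XY, but XY Control A was well above the other 3 Controls. The log2 fold change was 4.65 in XX (SE 1.52, adjusted p = 0.277 by edgeR) and 3.16 in XY (SE 1.42, adjusted p = 0.768), so neither passed, beside 0.0143% of 13956 genes called higher and 0.00717% lower in XX, and 0.00717% higher and 0% lower in XY. In XY, 881 genes had an unadjusted p under 0.05, and DESeq2 called 1085 genes in XX and 397 in XY.

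The outcome for Tex101 turned on the setting, as did the count of genes called, which without the filter was 566 in XX and 150 in XY. DESeq2 called it in XX (4.72, adjusted p = 0.00740), and edgeR with no filter on low counts called it in both sexes, at 4.64 in XX with an adjusted p of 1.9e-07 and at 3.16 in XY with one of 0.00143. Leaving out XY Control A gave 8.32 in XY (adjusted p = 0.0209) and 4.67 in XX (adjusted p = 0.00727). Without XY Control B the XX value was 4.68 (adjusted p = 0.0130), and without XX Control B it was 7.10 (adjusted p = 0.0283). A group left with 1 embryo is assumed in these fits to vary like the others.

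Mageb4 had 59.4 and 23.6 CPM in E12.5 XX ECKO A and B, against 17.7 and 12.503 CPM in Control A and B. In XY it had 10.1 and 50.9 CPM in ECKO A and B and 16.6 and 1.44 CPM in Control A and B, so the XY groups overlapped. The log2 fold changes were 1.46 in XX (SE 1.11, adjusted p = 0.610 by edgeR) and 1.76 in XY (SE 1.13, adjusted p = 0.783). With 1 embryo left out these ran from 0.65 to 1.97 in XX and from 0.16 to 4.43 in XY, lowest without XX ECKO A and XY ECKO B and highest without XX ECKO B and XY Control A. Taf7l was low throughout, with 7.71 and 5.84 CPM in XX ECKO and 3.11 and 0 CPM in XX Control, and with 1.80 and 0.331 CPM in XY ECKO and 0 and 0.297 CPM in XY Control. As for Tex101, each ECKO embryo was above both Controls of its sex for Taf7l, and for Mageb4 in XX. In XY the Taf7l groups were only just apart, at 0.331 against 0.297 CPM. This separation was shared by 23.3% of all genes tested in XX and 20.8% in XY. The Taf7l fold changes of 2.12 in XX (SE 2.60) and 2.76 in XY (SE 2.71) were about as large as their errors. They ran from 1.13 without XX Control B to 10.19 without XX Control A, and from 1.05 without XY ECKO A to 7.63 without XY Control B. Zbtb16 had 2.11 CPM in XX ECKO B and 0 in the other 7 embryos, where a count of 0 allows up to 0.212 CPM.

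Neither the sex of Controls nor the interaction separated the 3 genes that could be tested at E12.5. XX Control against XY Control gave log2 fold changes of -1.72 (SE 1.35) for Tex101, 3.30 (SE 2.76) for Taf7l and 0.75 (SE 1.10) for Mageb4, with adjusted p-values from 0.954 to 1 in edgeR, where 0.0430% of genes were called. The 2 X-linked genes, which XX cells carry in 2 copies, were not called between Control sexes. With SEs of 2.76 and 1.10, a 2-fold difference could not have been shown, so nothing is read about copy number. The XX minus XY difference of the ECKO effect was 1.49 (SE 1.86) for Tex101, -0.64 (SE 3.41) for Taf7l and -0.30 (SE 1.54) for Mageb4. No gene passed that test (0%), with 681 at an unadjusted p under 0.05 by edgeR and 200 called by DESeq2.

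Single cells show how the embryo sums were made up. A gene was scored as present in a cell at 10 CPM or more, and the intervals are exact Clopper-Pearson 95% intervals for the draw of cells from 1 embryo, not for the spread between embryos. Beside a share of 0, the limit given is 3 cells, which is narrower than that interval: the interval reaches 23.2% for 0 of 14 cells and 15.4% for 0 of 22. Tex101 was present in 11 of 13 cells (84.6%, 54.6 to 98.1) of XX ECKO A and 7 of 13 (53.8%, 25.1 to 80.8) of XX ECKO B. It was present in 0 of 14 cells of XX Control A, which allows a share of up to 21.4%, and in 2 of 16 (1.55 to 38.3%) of XX Control B. In XY ECKO A it was present in 14 of 18 cells (77.8%, 52.4 to 93.6) and in XY ECKO B in 10 of 18 (55.6%, 30.8 to 78.5). XY Control A had 4 of 13 such cells (30.8%, 9.09 to 61.4) and XY Control B 0 of 22, which allows up to 13.6%. The highest Control share, of XY Control A, was under the lowest ECKO share, of XX ECKO B, but their intervals overlapped and they differ in sex. How many other genes separate by cell shares in this way was not counted.

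Most ECKO cells held Tex101 either at 10 CPM or more or not at all. In XX ECKO 18 of 26 cells were at or above 10 CPM and the other 8 held no read. In XY ECKO 24 of 36 cells were at or above it, 1 held reads below it and 11 held none. In XX Control 2 of 30 cells were at or above it, 1 was below and 27 held none, and in XY Control the counts were 4, 2 and 29 of 35. Among cells scored present, the median was 104 and 56.5 CPM in XX ECKO A and B, 120 and 93.6 CPM in XY ECKO A and B, 55.6 CPM in XX Control B and 47.1 CPM in XY Control A. The highest cell of XX ECKO B held 69.6% of that embryo's Tex101 counts, and in the other 3 ECKO embryos the highest cell held 19.8% to 44.7%. Thinning each cell to 50000 counts left Tex101 in 76.9% and 46.2% of XX ECKO A and B cells, in 77.8% and 55.6% of XY ECKO A and B cells, in 0% of XX Control A cells, in the same share of XX Control B cells as before thinning, and in 23.1% and 0% of XY Control A and B cells.

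**Figure D3:**
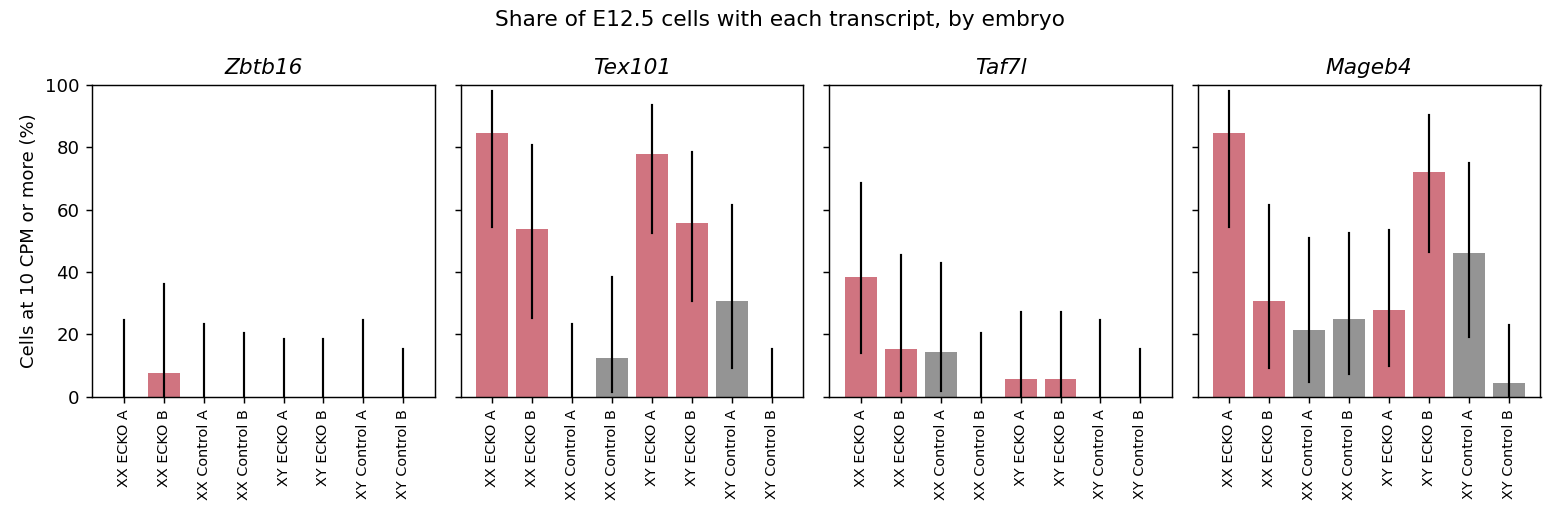
Share of kept E12.5 cells with each transcript at 10 CPM or more, 1 bar per embryo, ECKO in red and Control in grey, with exact 95% intervals as vertical lines. The 4 ECKO bars of Tex101, from 53.8% to 84.6%, stand above its 4 Control bars, from 0% to 30.8%, and the Zbtb16 panel holds a single bar.

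Mageb4 was present in 11 of 13 cells (84.6%) of XX ECKO A but in 4 of 13 (30.8%) of XX ECKO B, against 3 of 14 (21.4%) and 4 of 16 (25%) in XX Control A and B. In XY it was present in 5 of 18 cells (27.8%) of ECKO A and 13 of 18 (72.2%) of ECKO B, and in 6 of 13 (46.2%) of Control A and 1 of 22 (4.55%) of Control B. XX ECKO B and XY ECKO A thus lay within the range of the 4 Controls. Counting any read instead, Mageb4 was found in 94.4% of XY ECKO A cells and 88.9% of XY ECKO B cells, and in 76.9% and 22.7% of XY Control A and B cells, so XY ECKO A cells nearly all held it at a low level.

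Taf7l was rarer. It was present in 5 of 13 cells (38.5%) of XX ECKO A and 2 of 13 (15.4%) of XX ECKO B, and in 2 of 14 (14.3%) and 0 of 16 of XX Control A and B, the last allowing up to 18.8%. In XY it was present in 1 of 18 cells of each ECKO embryo (5.56%), and in 0 of 13 and 0 of 22 cells of Control A and B, which allow up to 23.1% and 13.6%. With any read counted, 69.2% and 30.8% of XX ECKO A and B cells held it, against 21.4% and 0% of XX Control A and B cells. The shares were 38.9% and 11.1% in XY ECKO A and B and 0% and 4.55% in XY Control A and B. A single XX ECKO B cell at 171 CPM carried 75.3% of that embryo's Taf7l counts.

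Zbtb16 was found in 1 of the 127 cells, an XX ECKO B cell with 35 reads, or 20.1 CPM. That cell was also the only one in which all 4 genes were present. In XX embryos at least 2 of the 4 genes were present in 11 of 13 ECKO A and 5 of 13 ECKO B cells, against 0 of 14 Control A and 1 of 16 Control B cells. In XY embryos the counts were 4 of 18 ECKO A and 6 of 18 ECKO B cells, and 2 of 13 Control A and 0 of 22 Control B cells. Tex101 and Mageb4 were present together in 10 of 13 cells of XX ECKO A, 4 of 13 of XX ECKO B, 4 of 18 of XY ECKO A and 6 of 18 of XY ECKO B.

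**Figure D4:**
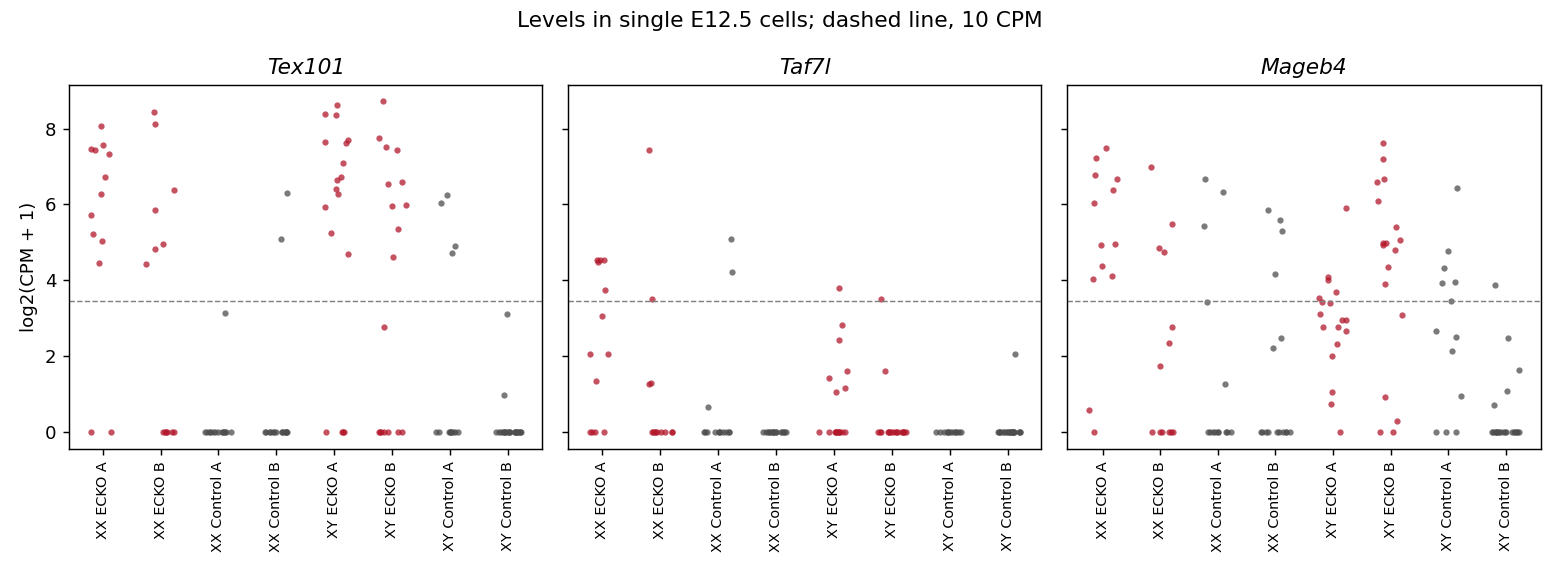
Level of Tex101, Taf7l and Mageb4 in each kept E12.5 cell as log2(CPM + 1), 1 point per cell, by embryo, ECKO in red and Control in grey, with the line at 10 CPM. Tex101 points of ECKO embryos fall either at 0 or mostly well above the line, whereas many Mageb4 points of XY ECKO A and Taf7l points of ECKO embryos lie between 0 and the line.

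Eed at 10 CPM or more was still found in part of the ECKO cells, and cells with Tex101 present lay on both sides of that level. Any read of Eed was found in 94.4% of XY ECKO A cells and 92.3% of XX ECKO A cells. In XY ECKO A, Tex101 was present in 12 of 13 cells with Eed at 10 CPM or more and in 2 of 5 cells below it. In XY ECKO B the counts were 5 of 6 cells at or above it and 5 of 12 below. In XX ECKO A they were 6 of 6 at or above it and 5 of 7 below, and in XX ECKO B 3 of 6 at or above it and 4 of 7 below. Where the reads lie along Eed is not known from these counts, so a read does not show an undeleted gene.

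Supporting cell and interstitial sums at E12.5 lay higher in ECKO embryos, while endothelial sums did not. The 12 supporting cell markers summed to 241 to 434 CPM in XX ECKO and 13.2 to 117 CPM in XX Control, and to 151 to 172 CPM in XY ECKO and 17.4 to 144 CPM in XY Control. Dhh had no counts in any of the 4 groups and Amh none in either ECKO group or in XX Control. Of the 6 supporting cell genes tested, all 6 had a positive log2 fold change in XX (median 8.22) and 5 in XY (median 5.47). Sox9, Gata4 and Fst had no counts in either Control group, so they could only come out higher. Germ cell identity markers summed to 2531 to 3201 CPM in XX ECKO and 6646 to 6962 CPM in XX Control, and to 5337 to 7413 CPM in XY ECKO and 7748 to 8852 CPM in XY Control. Interstitial markers summed to 14.1 to 281.1 CPM in XX ECKO and 0.307 to 3.90 CPM in XX Control, and to 10.3 to 10.7 CPM in XY ECKO and 0.295 to 2.72 CPM in XY Control, with Tcf21, Dcn and Lum at 0 in all groups. Endothelial markers summed to 11.9 to 22.3 CPM in XX ECKO and 96.4 to 170 CPM in XX Control, and to 33.7 to 114 CPM in XY ECKO and 74.8 to 184 CPM in XY Control. Of the 6 endothelial genes tested, 1 had a positive fold change in XX and 4 in XY. The part of these marker differences in the levels of Tex101 was not tested.

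Across all groups the order of levels differed between genes. Mean Tex101 was 111 ± 44.9 CPM (SD, n = 2) in E12.5 XY ECKO, 108 ± 109 (n = 3) in E13.5 XY ECKO and 93.9 ± 17.5 (n = 2) in E12.5 XX ECKO, and these 3 did not differ beyond their spread. Next came E11.5 XY ECKO (13.48 ± 8.20, n = 4), E12.5 XY Control (12.4 ± 17.04, n = 2), E11.5 XX ECKO (11.7 ± 3.70, n = 4), E11.5 XY Control (8.92 ± 4.84, n = 4), E12.5 XX Control (3.74 ± 4.33, n = 2), E11.5 XX Control (1.86 ± 1.02, n = 3) and E13.5 XY Control (0.736 ± 0.898, n = 4), and the ranges of mean ± 1 SD of neighbours in this order overlapped. Zbtb16 was instead high in E13.5 XY ECKO alone (74.1 ± 54.0 CPM, n = 3). It followed with 6.49 ± 5.10 (n = 4) in E11.5 XX ECKO and 3.99 ± 3.61 (n = 3) in E11.5 XX Control, and stayed near or under 1 CPM in the other groups.

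Taf7l averaged 97.1 ± 47.5 CPM (n = 3) in E13.5 XY ECKO, then 13.4 ± 7.47 (n = 4) in E11.5 XX ECKO, 12.4 ± 5.01 (n = 4) in E11.5 XY ECKO and 6.78 ± 1.32 (n = 2) in E12.5 XX ECKO, with all other groups at 3.34 CPM or less. Mageb4 averaged 161 ± 70.9 CPM (n = 3) in E13.5 XY ECKO, 41.5 ± 25.4 (n = 2) in E12.5 XX ECKO and 30.5 ± 28.9 (n = 2) in E12.5 XY ECKO, then 15.1 ± 3.69 (n = 2) in E12.5 XX Control, 13.7 ± 9.06 (n = 4) in E11.5 XX ECKO, 9.02 ± 10.7 (n = 2) in E12.5 XY Control, 8.99 ± 4.01 (n = 4) in E11.5 XY ECKO, 6.65 ± 2.54 (n = 4) in E13.5 XY Control, 1.82 ± 3.15 (n = 3) in E11.5 XX Control and 1.75 ± 0.753 (n = 4) in E11.5 XY Control. Below Mageb4 of E13.5 XY ECKO, the ranges of mean ± 1 SD of neighbours in that order overlapped. Levels set across stages come from tables normalised separately and, at E12.5, from another library method, so they are descriptions.

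The wider families give the setting of the 4 genes in E13.5 XY cells. Each count below is of genes other than those 4 and stands beside 2.99% called higher over all genes. A gene with no counts in the Controls passed the count filter through ECKO alone and could only come out higher. Genes with few Control counts may also have passed through ECKO alone, and how many did was not counted. The lists were also chosen with earlier results of these data known, so these shares are descriptions. Of 21 tested spermatogonial genes 5 rose and none fell, with a median log2 fold change of 0.89 against 0.05 over all genes and 13 of the 21 at positive values. The 27 spermatogonial genes of the list, tested or not, summed to 1813 to 2575 CPM in ECKO and 2523 to 3669 CPM in Control. Uchl1, a ubiquitin hydrolase of spermatogonia, rose by 4.08 (SE 0.68, adjusted p = 0.0107 by edgeR), Ret, the receptor for GDNF, by 4.24 (SE 0.83, adjusted p = 0.0174), Egr4, a zinc finger transcription factor, by 6.12 (SE 1.198, adjusted p = 0.0171) and Piwil4, a piRNA-binding protein of fetal male germ cells, by 4.79 (SE 0.99, adjusted p = 0.0217). Nanos2, a male germ cell RNA-binding protein, was the fifth. Kit, which had a value of -1.94 (adjusted p = 0.0855), Sall4, a pluripotency and germ cell zinc finger factor with -1.35 (adjusted p = 0.0503), and Id4, at 1.75 (adjusted p = 0.351), did not pass.

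Of 18 tested late germ cell genes 3 rose and none fell, with a median of 1.42. Dpep3, a testis dipeptidase that forms a complex with TEX101, rose by 8.92 (SE 1.83, adjusted p = 0.0295 by edgeR). Dpep3 had no counts in the Controls, so it could only come out higher. Ly6k, another surface protein known to bind TEX101, had 1.19 (SE 1.68, adjusted p = 0.717). Pdha2, the testis form of a pyruvate dehydrogenase subunit, rose by 5.47 (SE 1.32, adjusted p = 0.0370) and Tex15, needed for meiotic recombination, by 1.52 (SE 0.36, adjusted p = 0.0342).

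Of 17 tested TFIID and TBP family genes only Taf9b, a paralogue of Taf9, rose (2.78, SE 0.55, adjusted p = 0.0179 by edgeR), and the median was 0.21. Taf7, the autosomal relative of Taf7l, had 1.27 (SE 0.34, adjusted p = 0.0516), and Taf4b, a germ cell TFIID subunit, had 0.46 (adjusted p = 0.482). Of the 22 MAGE genes listed, 5 were tested and none was called. Mageb16, the Mageb gene among these 5, had 0.24 (SE 0.42, adjusted p = 0.774). Reads of near-identical MAGE genes may be split between copies, so their counts are uncertain.

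X-linked spermatogonial genes were called most often among these lists, with 6 of 10 tested higher, none lower and a median of 3.92. Of the 10, Fthl17 had no counts in the E13.5 XY Controls, so it could only come out higher. Nxf2, Pramel3 and Esx1 passed the count filter here but in neither E11.5 comparison. Whether they passed it through ECKO alone was not examined, so the order of the lists is a description. Nxf2, an mRNA export factor of the testis, rose by 8.49 (SE 0.61, adjusted p = 6.2e-05 by edgeR), Pramel3 by 7.76 (SE 1.49, adjusted p = 0.0161), Esx1, a homeobox gene, by 7.08 (SE 1.38, adjusted p = 0.0170) and Tex13 by 2.40 (SE 0.48, adjusted p = 0.0187). Tex16 and Usp26 were the other 2, and Tex11, needed for meiotic crossovers, had 0.40 (adjusted p = 0.646). All 11 listed genes lie on chromosome X in RefSeq, with Taf7l and Mageb4. Pramel3 belongs to a family of near-identical copies, which makes its count uncertain.

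**Figure D5:**
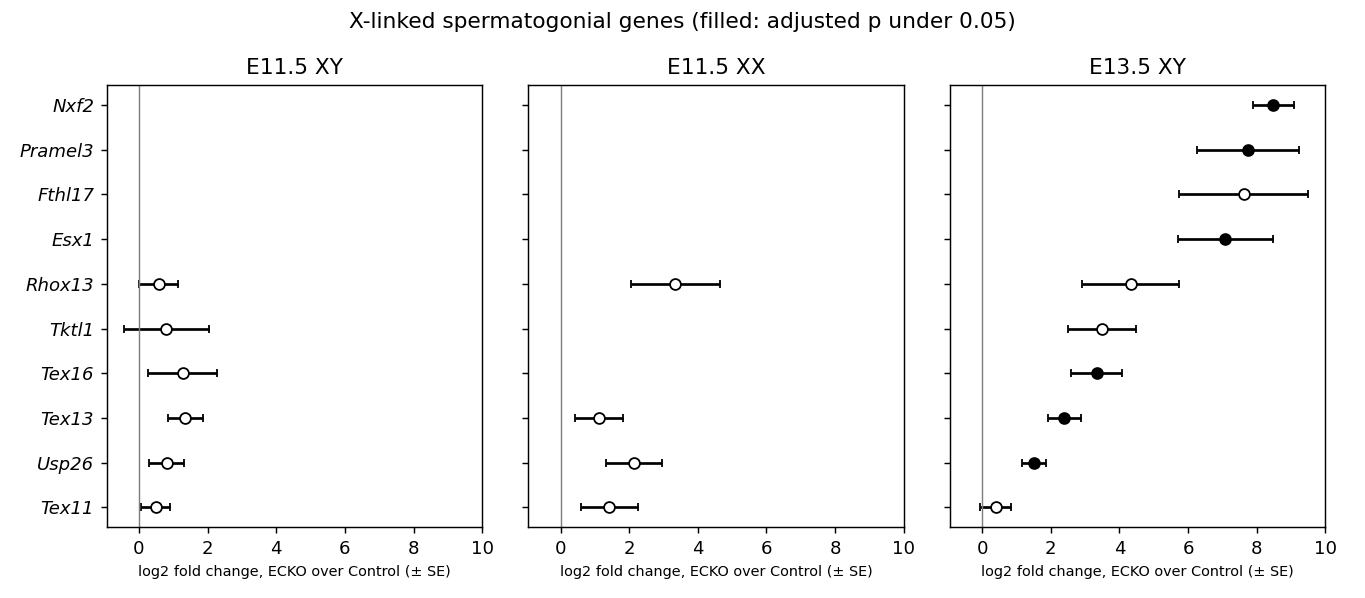
Fitted log2 fold change of ECKO over Control with 1 SE for the X-linked spermatogonial genes that passed the count filter in E11.5 XY, E11.5 XX and E13.5 XY, filled where the adjusted p was under 0.05. In E13.5 XY 6 of 10 are filled, Nxf2 highest at 8.49, while in E11.5 XY and E11.5 XX all values are positive and none is filled.

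Germline genes whose promoters are methylated in somatic cells, a list from textbook knowledge, had 8 of 25 members higher and none lower, with a median of 1.36. Tdrd1, a Tudor domain protein of the piRNA pathway, rose by 3.23 (SE 0.46, adjusted p = 0.00535 by edgeR), Mael by 2.15 (SE 0.34, adjusted p = 0.00965), Mov10l1 by 2.56 (SE 0.45, adjusted p = 0.0122) and Sycp1, of the synaptonemal complex, by 1.96 (SE 0.44, adjusted p = 0.0285). Dpep3 stands on this list as well as on the late germ cell list, and Tex11 on this and the X-linked list. Germ cell identity genes had none called of 12, with a median of -0.62, and of the somatic marker lists only Pdgfra, a mesenchymal receptor, rose (4.65, SE 1.17, adjusted p = 0.0426).

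Many of these calls rested on single libraries. Leaving out Control 1, Control 4, ECKO 2 or ECKO 3 cut the 6 X-linked genes called to 1, 1, 2 and 3 and the 5 spermatogonial genes to 1, 0, 1 and 0, whereas leaving out ECKO 1 gave 8 X-linked and 7 spermatogonial genes higher and 4 spermatogonial genes lower. Leaving out Control 2 or Control 3 gave 4 and 8 X-linked genes and 5 and 5 spermatogonial genes. The 3 late germ cell genes became 0, 1, 5 and 0 without Controls 1 to 4, and 4, 0 and 0 without ECKO 1 to 3. Taf9b lost it without Control 1, Control 4, ECKO 2 or ECKO 3, with adjusted p-values from 0.0509 to 0.0676, and Pdgfra also without Control 2, from 0.0728 to 0.187. For germline genes with methylated promoters, the 8 became 4, 5, 11 and 2 without Controls 1 to 4 and 11, 3 and 2 without ECKO 1 to 3. Nxf2, Tdrd1 and Mael were called in all 7 such fits.

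At E11.5 few genes of the same lists were called, beside 1.51% called higher over all genes in XY and 0.136% in XX. In XY cells Uchl1 (2.12, SE 0.30, adjusted p = 0.00242 by edgeR) and Itga6, a laminin receptor subunit found on spermatogonial stem cells (2.62, SE 0.45, adjusted p = 0.00871), were the 2 of 21 spermatogonial genes that rose, and both stayed called in all 8 fits that left out 1 library. Tdrd1 was the 1 of 24 germline genes with methylated promoters that rose, at 2.26 in XY (SE 0.42, adjusted p = 0.0127) and at 3.86 in XX (SE 0.42, adjusted p = 0.00478). It had an adjusted p of 0.0516 in XY without Control 2, and of 0.0575, 0.0585 and 0.128 in XX without Control 1, 2 or 3. Pecam1, of the endothelial list but also expressed by PGCs, was lower in XY (-0.79, SE 0.19, adjusted p = 0.0374), and lost the call in 6 of 8 such fits, with adjusted p-values from 0.0597 to 0.128. All 6 X-linked spermatogonial genes tested in XY and all 4 tested in XX had positive fold changes, with medians of 0.80 and 1.79, and none passed. No list gene passed in either E12.5 comparison, where the X-linked list had medians of 3.46 in XX (8 of 9 positive) and 2.01 in XY (9 of 9 positive). The medians over all genes were 0.13 in XX and 0.10 in XY. Esx1 and Tex16 had no counts in either E12.5 Control group, and Nxf2 had none in XY Control. There they could only come out higher, so the counts of positive genes are descriptions.

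Over the 22 bulk libraries the 4 genes varied together, as a correlation of log2(CPM + 1) that the E13.5 XY ECKO libraries enter and that is therefore a description. Pearson's r ran from 0.65 (Tex101 and Mageb4) to 0.85 (Tex101 and Taf7l), and Spearman's rho from 0.46 (Zbtb16 and Tex101) to 0.78. Among 11762 other genes, the profile nearest to that of Zbtb16 was Xlr5b, of a multi-copy X-linked family with uncertain counts (r = 0.94), followed by Mei1, Cnp, Unc5d and Hap1 (0.88 or more). Nearest to Tex101 were Ncdn (0.87), Sdr39u1, Usp22, Trim21 and Faap100. Nearest to Taf7l were Hdgfl1 (0.90), Paqr4, Trim21, Nxf3 and Piwil4, and nearest to Mageb4 were Tdrd1 (0.91), Chd7, Asxl3, Nxf2 and Dock3. Trim21 was the 1 gene named for 2 of the 4. These libraries share stage, table and depth differences as well as genotype.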

How the data were processed

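The deposited values are counts, whole numbers for each gene symbol with 1 column per bulk library (Ovation RNA-seq System V2, per the labels' protocols) or Smart-seq2 cell. HISAT2, edgeR and mm9 are named in the submitters' processing notes. No source used here gives the counting program, annotation or strand setting. The 4 genes, the gene lists and the tests were chosen with earlier results of these data known. Bulk tables were fitted separately in edgeR 4.0.16 (R 4.3.3) with filterByExpr, TMM scaling, the quasi-likelihood test and Benjamini-Hochberg adjustment over all genes tested, called under 0.05. Cells with at least 50000 counts and 1500 genes were summed per embryo, lettered by header code since the codes could not be tied to embryo numbers, and the 8 embryos fitted together. No doublet caller was run, as each well was sorted to hold 1 cell. One XX cell labelled wild type but titled ECKO was grouped by title. CPM used TMM factors.

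Named genes were Eed, the 4 genes, up to 4 called genes of smallest adjusted p per list, and the 5 genes of highest Pearson r for each of the 4 (mean of at least 5 CPM in a group, detected in at least 6 libraries); others named were chosen after their values were seen. Same-numbered replicates correlated between -0.158 and 0.191 after removal of group means, so numbers do not pair. Replicates differed by 4.77 to 204 chi-square units per degree of freedom. DESeq2 1.42.0, RLE scaling, no filter, a replicate block, other cell filters and leaving out each library were tried. The code was tested on simulated data. Intervals and limits from a count of 0 (3 counts) cover counting error only, and PCR copies of a molecule count as separate reads. Bisulfite libraries were not analysed here.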

Additional observations from a re-analysis of the deposited data

Results flagged for a closer look

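In 16 groups of 4 libraries, 4 values stood apart from the rest of their group by Dixon's test, which chance does in about 1 in 20 groups. Mageb4 was highest in E11.5 XX ECKO 3, at 27.2 CPM, with the next library at 10.51 CPM. Taf7l was lowest in E11.5 XY ECKO 1, at 4.91 CPM, with the next at 14.7 CPM. Tex101 was highest in E13.5 XY Control 2, at 2.08 CPM, with the next at 0.422 CPM, and without that library its log2 fold change was 8.62 in place of 7.06. Zbtb16 was highest in E11.5 XY Control 4, at 0.0680 CPM, which is 1 read where the other 3 Controls held none.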

How the results depend on the processing

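Leaving aside omissions of 1 library, 103 values of the 4 genes held under DESeq2, RLE scaling, no filter, the replicate block and the looser cell filter. For E11.5 and E12.5 values this meant the same direction and the same side of the threshold. For E13.5 XY values, which had no test, it meant the same direction and a shift smaller than the within-group SD of log2 CPM. The other 5 crossed the threshold with the same direction. These were, in DESeq2, Taf7l (2.31) and Mageb4 (2.37) in E11.5 XY and Tex101 (4.72) in E12.5 XX, and without the filter Tex101 in E12.5 XX (4.64) and XY (3.16). With 1 library left out, 217 values held in that sense, 5 crossed the threshold and 1 of E13.5 XY shifted further. The other 13 reversed, all 13 in the XX against XY results named next.

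The number of genes called depended on the tool. DESeq2 called 1031 in E11.5 XY, 325 in E11.5 XX, 2100 in E13.5 XY, 1 for the E11.5 difference, 1085 in E12.5 XX, 397 in E12.5 XY, 348 for XX against XY Control and 200 for the E12.5 difference, against 266, 19, 604, 0, 3, 1, 6 and 0. Without the filter the counts were 457, 217, 1268, 566, 150, 146 and 84, with 0 for the E11.5 difference. The replicate block, though the numbers do not pair, gave 151, 35 and 26 for the 3 bulk comparisons and changed no call of the 4 genes. No block was possible at E12.5. The cause of these differences was not tested.

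With 1 library left out, genes called ranged from 64 to 333 in E11.5 XY, 0 to 26 in E11.5 XX, 94 to 2141 in E13.5 XY, 0 to 1 for the E11.5 difference, 46 to 241 in E12.5 XX, 3 to 53 in E12.5 XY, 16 to 100 for XX against XY Control and 0 to 37 for the E12.5 difference. Fold changes ranged from 1.99 to 3.43 for Taf7l in E11.5 XY, 3.78 to 7.10 for Tex101 in E12.5 XX and 2.20 to 8.32 in E12.5 XY. For the E11.5 difference they ranged from -1.55 to 1.13 for Taf7l and -0.38 to 7.41 for Mageb4. For XX against XY Control they ranged from -4.14 to 3.44 for Tex101, -4.78 to 8.17 for Taf7l and -0.12 to 3.42 for Mageb4, and for the E12.5 difference from -3.66 to 3.92, -5.50 to 7.44 and -2.95 to 1.30.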
